A study of Mus musculus with 45 samples.

Results

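Expression of 9 genes of the machinery that docks, primes and fuses secretory vesicles was followed in mouse pancreatic islets: Snap25, Stx1a, Vamp2, Syt7, Syt13, Rims2, Unc13a, Rab3a and Rab27a. They were listed by gene symbol, with earlier results of these data known, and are 9 of the 22904 genes in the deposited matrix. All 9 passed the filter on low counts, which left 20306 genes. Islets, the hormone-secreting cell clusters of the pancreas, came from mice of 3 inbred strains: NZO/HlLtJ, an obese strain prone to diabetes; CAST/EiJ, a wild-derived strain; and C57BL/6J, a common laboratory strain. Males and females were fed a high-fat diet (44% fat) or a control diet (10% fat), each with fiber, starting at 6 weeks of age, and islets were collected at 16 weeks. Every library is labelled as wild type and as having had no treatment, and no group carries a transgene. Bulk polyadenylated RNA was sequenced in 45 libraries that form 12 groups, with 4 libraries in 9 groups and 3 libraries each in NZO/HlLtJ males on 44% fat, NZO/HlLtJ males on 10% fat and CAST/EiJ males on 10% fat.

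Insulin and glucagon are stored in dense-core granules that fuse with the plasma membrane when calcium rises. Fusion is driven by a SNARE complex, in which Vamp2 on the vesicle zips together with Stx1a and Snap25 on the plasma membrane. Syt7 is a calcium sensor of granule fusion in beta cells, and Syt13 is an atypical synaptotagmin that does not bind calcium. Rims2 and Unc13a (Munc13-1) dock granules and make them ready to fuse, and Rab3a and Rab27a are small GTPases on the vesicle surface that recruit docking effectors.

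RefSeq promoter windows on GRCm38.p6, from 250 bases before to 50 bases after the annotated start, were at hand for 4 of the 9 genes (Stx1a, Unc13a, Rab3a and Rab27a; 6 windows, since Rab3a and Rab27a have a pair of starts each). These 4 genes are shown because only they had a window, and a link between the letters and expression was not tested. One window per gene is printed 5′ to 3′ on the gene's strand, at chr5:135023232-135023531 (plus) for Stx1a, chr8:71671708-71672007 (minus) for Unc13a, chr8:70754453-70754752 (plus) for Rab3a and chr9:73044560-73044859 (plus) for Rab27a. Capitals mark matches, on either strand, to the letters of the motifs named after them.
Stx1a: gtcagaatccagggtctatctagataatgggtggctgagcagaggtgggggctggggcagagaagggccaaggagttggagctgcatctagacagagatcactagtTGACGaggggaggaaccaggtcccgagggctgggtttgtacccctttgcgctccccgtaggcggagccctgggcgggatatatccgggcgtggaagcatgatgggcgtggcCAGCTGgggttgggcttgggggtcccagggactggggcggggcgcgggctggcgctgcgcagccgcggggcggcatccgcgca
Unc13a: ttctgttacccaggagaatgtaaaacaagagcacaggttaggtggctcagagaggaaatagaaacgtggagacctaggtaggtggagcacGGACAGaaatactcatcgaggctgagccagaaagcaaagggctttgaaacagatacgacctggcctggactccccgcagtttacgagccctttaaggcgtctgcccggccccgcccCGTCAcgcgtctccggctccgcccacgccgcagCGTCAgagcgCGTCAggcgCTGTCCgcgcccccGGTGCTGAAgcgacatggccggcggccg
Rab3a: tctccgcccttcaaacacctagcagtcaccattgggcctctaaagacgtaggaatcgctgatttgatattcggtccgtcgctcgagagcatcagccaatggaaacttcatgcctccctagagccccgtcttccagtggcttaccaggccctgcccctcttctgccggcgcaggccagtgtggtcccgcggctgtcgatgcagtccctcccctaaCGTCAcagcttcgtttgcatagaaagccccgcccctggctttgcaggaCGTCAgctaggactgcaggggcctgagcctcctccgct
Rab27a: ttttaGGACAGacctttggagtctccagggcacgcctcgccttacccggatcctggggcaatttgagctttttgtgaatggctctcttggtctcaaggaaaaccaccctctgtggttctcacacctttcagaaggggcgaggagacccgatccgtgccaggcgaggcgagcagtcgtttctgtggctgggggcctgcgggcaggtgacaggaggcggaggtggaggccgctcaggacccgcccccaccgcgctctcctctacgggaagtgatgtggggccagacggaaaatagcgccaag

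The letters searched were TGACG (the core of a cAMP response element; CGTCA on the other strand), the full element TGACGTCA, the left and right parts of the RE1 element of the neuronal repressor REST (TTCAGCACC and GGACAG) and the E-box CAGCTG. Any full element also counts as TGACG, and the other motifs do not overlap it or each other in these windows. Unc13a held CGTCA 3 times, at -44, -11 and -1 from its start, and Rab3a held it at -36 and 12. Stx1a held TGACG at -144 and CAGCTG at -33. Unc13a was the only one of these windows with the left RE1 part, as GGTGCTGAA at 22, and it also held the right part at -160 and 8. In the Rab27a window printed, GGACAG at -245 was the only match, while its second window held TGACG at -22 and CAGCTG at -15. The second Rab3a window held CAGCTG at -185. Of 32851 promoter windows of the same length, 20.8% held TGACG, 1.79% held TGACGTCA, 0.371% held the left RE1 part, 22.2% held the right part and 16.3% held CAGCTG. None of the 6 windows held TGACGTCA. These matches describe letters only.

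All positions of genes are on GRCm38, from the deposited annotation. Of the SNARE genes, Snap25 (ENSMUSG00000027273) lies at chr2:136713453-136782428 (plus), Stx1a (ENSMUSG00000007207) at chr5:135023482-135051100 (plus) and Vamp2 (ENSMUSG00000020894) at chr11:69088490-69092384 (plus). Syt7 (ENSMUSG00000024743) lies at chr19:10389090-10453181 (plus) and Syt13 (ENSMUSG00000027220) at chr2:92915098-92956058 (plus). Rims2 (ENSMUSG00000037386) lies at chr15:39198332-39681940 (plus) and Unc13a (ENSMUSG00000034799) at chr8:71624417-71671757 (minus). Rab3a (ENSMUSG00000031840) lies on the same chromosome at chr8:70754679-70758677 (plus), and Rab27a (ENSMUSG00000032202) at chr9:73044854-73097629 (plus). Exons of 4 of the 9 overlap exons of another gene: Unc13a shares 495 bases with Colgalt1, Syt7 384 with Gm26859 and Rab3a 29 with Mpv17l2, each on the opposite strand, and Rab27a shares 149 with the pseudogene Gm27186 on its own strand. Use of strand in the counting was not given in the sources used here, so reads in these stretches are uncertain.

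Per kilobase of exon, Syt13 was the most abundant of the 9, at a mean of 235.7 CPM (counts per M counts of the library, TMM-scaled) per kilobase over the 45 libraries. Rab27a followed at 58.3, then Rab3a and Syt7 at 36.9 each, Vamp2 at 35.2, Snap25 at 12.8, Unc13a at 9.57, Rims2 at 3.64 and Stx1a at 2.90. A library held between 314 counts (the lowest Stx1a value) and 126825 counts (the highest Syt13 value) for a member. In CPM, not scaled for length, the range across libraries was widest for Syt13, with 358.5 at the lowest, 961 at the median and 1499 at the highest. Snap25 spanned 34.0 to 130.6 CPM, Rims2 16.02 to 48.7, Rab27a 106 to 315, and Rab3a 49.5 to 143. As a ratio of highest to lowest, the spans of Vamp2 (78.3 to 166 CPM, a ratio of 2.12) and Syt7 (156 to 346 CPM, 2.21) were the smallest of the 9.

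Library totals ran from 57.2 to 110 M counts, with a median of 84.4 M. Whether every library is from its own mouse is not in the labels, so the p-values reflect library-to-library spread, which may be technical. The sex labels were checked with Xist, the RNA that silences an X chromosome in females (0.0442 to 15.4 CPM in 21 male libraries, 531 to 1938 CPM in 24 female libraries), and with the Y-linked Ddx3y (44.4 to 74.4 CPM in males, no more than 0.0327 CPM in females). Transcripts normally absent from the labelled strain were seen in 4 libraries at over 1% of the level in another strain. They were CAST/EiJ female 44% fat replicates 1, 2 and 4, at 9.25%, 3.24% and 3.83% of the C57BL/6J level over 26 transcripts, and NZO/HlLtJ male 44% fat replicate 3, at 1.13% of it over 11 transcripts. For the diet, strain and sex comparisons that use this NZO/HlLtJ library, it is also said which members passed without it. Shares of all genes tested are given with no library left out. The sample codes fall into number series (76, 80 and 89) of unstated meaning. Among NZO/HlLtJ libraries, series 80 was made up of males on 44% fat with females on 10% fat, and series 89 of females on 44% fat with males on 10% fat, so within each sex series and diet are partly confounded.

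**Figure D1:**
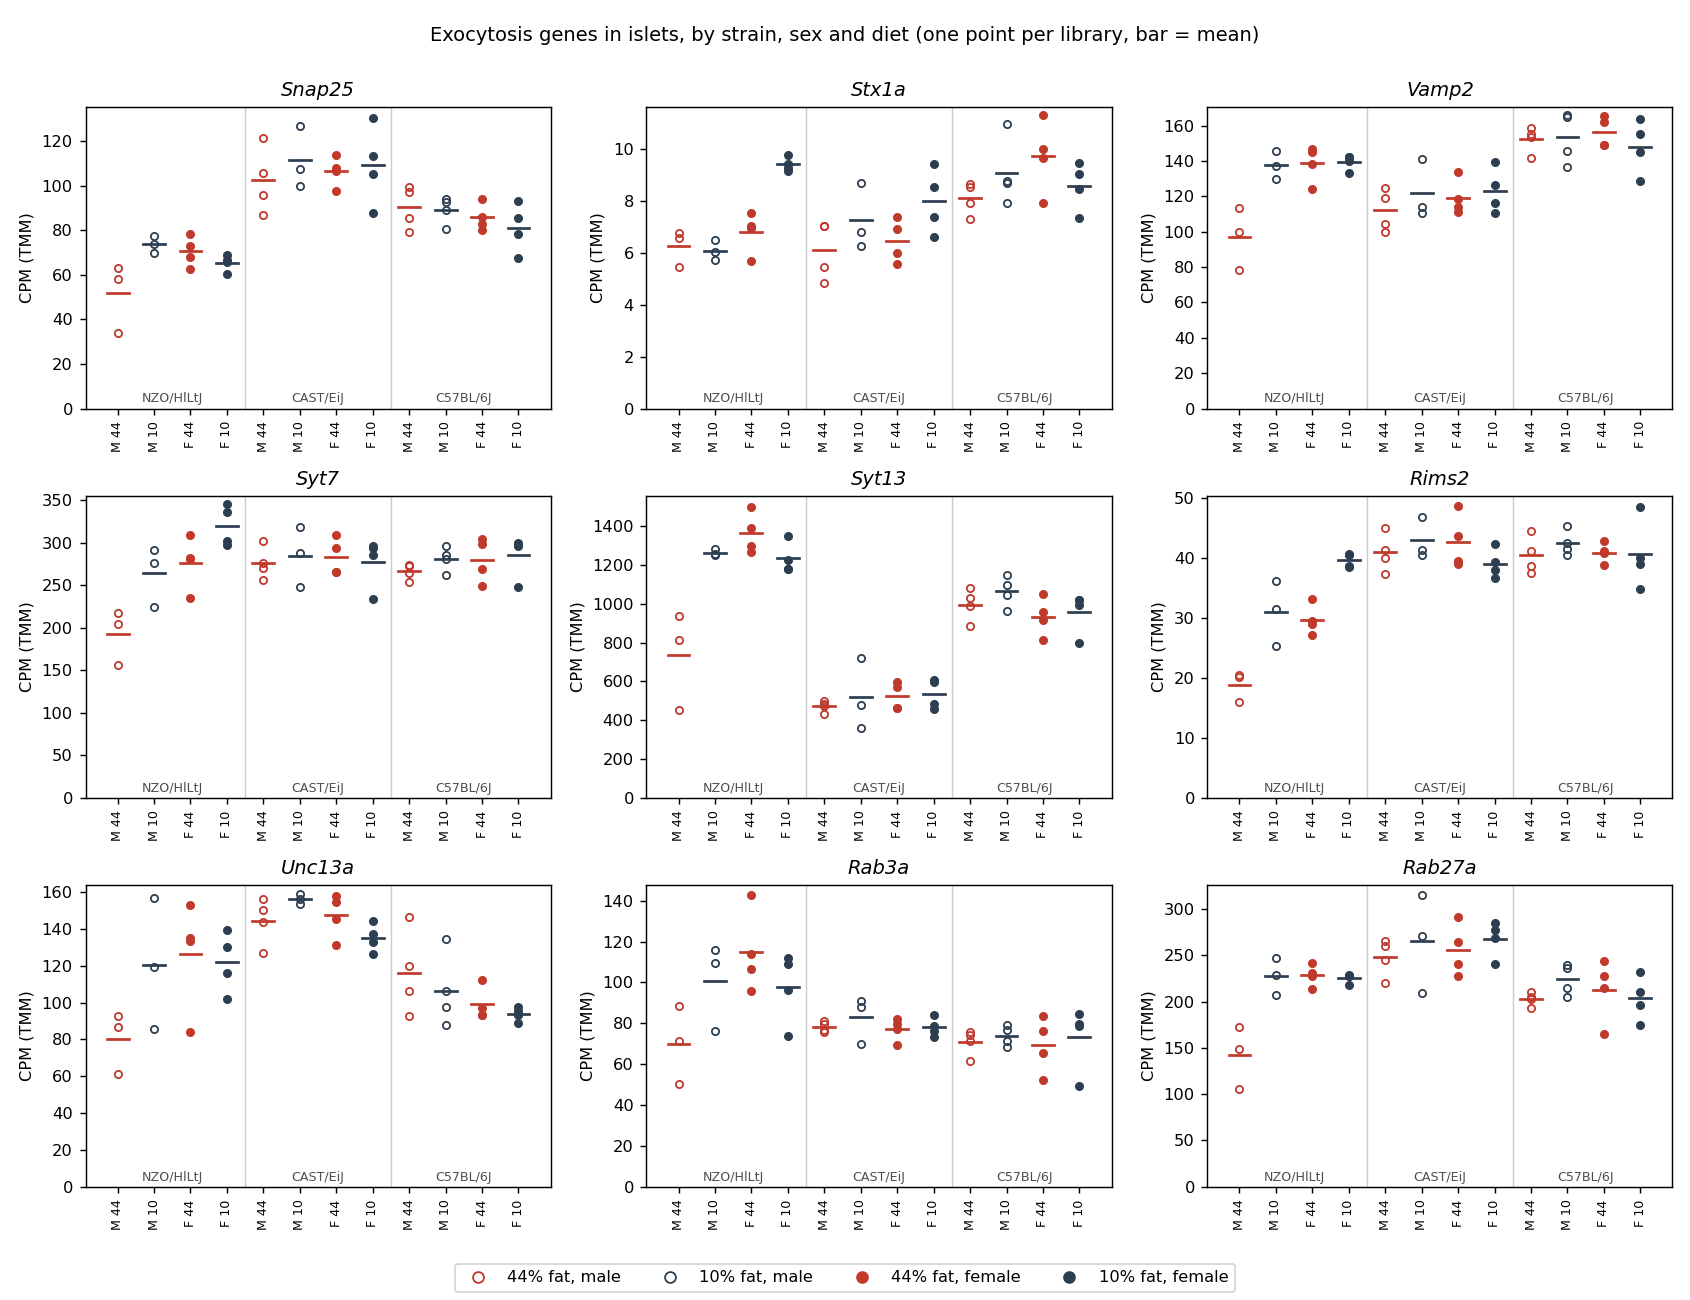
Level of each of the 9 genes in CPM (TMM-scaled, linear axis) in every library, by strain, sex and diet; points are libraries (open, males; filled, females; red, 44% fat; dark, 10% fat) and bars are group means of 3 or 4 libraries. Syt13 is lowest in CAST/EiJ, Snap25 highest in CAST/EiJ, and Rims2 lowest in NZO/HlLtJ on 44% fat.

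The first comparison asked how the high-fat diet changed these genes in NZO/HlLtJ males. On 44% fat, 8 of the 9 genes fell and none rose, where 15.1% of all genes tested fell and 17.0% rose. Rims2, Syt13 and Rab27a had the largest changes, and Stx1a was the exception. The median log2 fold change of the 9 genes was -0.52, beside -0.03 over all genes. Each test compared 3 libraries with 3. In bulk RNA, fewer cells of a type and less RNA per cell cannot be told apart.

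Among the SNARE genes, Vamp2, the vesicle SNARE, had 99.7, 114 and 78.3 CPM in NZO/HlLtJ males on 44% fat, against 137, 129.6 and 146 CPM in those on 10% fat. All libraries on 44% fat lay below all libraries on 10% fat, and the fold change was -0.50 on the log2 scale (SE 0.11, adjusted p = 0.000906, edgeR quasi-likelihood test). Snap25, the plasma membrane SNARE that lends 2 helices to the complex, had 63.1, 58.4 and 34.0 CPM on 44% fat, against 69.7, 74.1 and 77.7 CPM on 10% fat. Its groups did not overlap either, with replicate 3 on 44% fat far below the rest, and its change was -0.51 (SE 0.15, edgeR adjusted p = 0.00776). Stx1a, the partner of Snap25 on the plasma membrane and the least abundant of the 9, had 6.76, 5.45 and 6.57 CPM on 44% fat, against 6.49, 6.03 and 5.70 CPM on 10% fat. These overlapped, and the change was 0.04, with a 95% interval of -0.26 to 0.34 (edgeR adjusted p = 0.862).

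Of the synaptotagmins, Syt13 had 814.5, 939 and 453.5 CPM in NZO/HlLtJ males on 44% fat, against 1251, 1282 and 1258 CPM in those on 10% fat. The control libraries lay close together and the 44% fat libraries were spread out below them, with a change of -0.78 (SE 0.18, edgeR adjusted p = 0.00107). Syt7, the calcium sensor, had 204, 218 and 156 CPM on 44% fat, against 292, 276 and 225 CPM on 10% fat. The groups did not overlap but came close, and Syt7 fell by 0.45 on the log2 scale (SE 0.12, edgeR adjusted p = 0.00324).

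Of the docking and priming genes, Rims2 had 20.45, 20.15 and 16.02 CPM in NZO/HlLtJ males on 44% fat, against 36.1, 31.5 and 25.2 CPM in those on 10% fat. The groups were apart, and Rims2 had the smallest adjusted p of the 9, with a change of -0.71 (SE 0.11, edgeR adjusted p = 1.6e-05), or 0.61 of the control level. Unc13a, which opens syntaxin for SNARE assembly, had 86.9, 92.6 and 61.3 CPM on 44% fat, against 157, 119 and 85.7 CPM on 10% fat. Here the groups overlapped, since the lowest control library lay below 2 of the 44% fat libraries, and the change was -0.59 (SE 0.18, edgeR adjusted p = 0.0101). Without male 10% fat replicate 1, Unc13a no longer passed, at -0.35.

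Of the vesicle GTPases, Rab27a had 149, 173 and 106 CPM in NZO/HlLtJ males on 44% fat, against 229, 208 and 247 CPM in those on 10% fat, with no overlap. Its change was -0.67 (SE 0.14, edgeR adjusted p = 0.000299). Rab3a had 88.4, 71.6 and 50.25 CPM on 44% fat, against 76.02, 109.7 and 116 CPM on 10% fat. The highest 44% fat library exceeded the lowest control library, and the change was -0.52 (SE 0.18, edgeR adjusted p = 0.0245), which did not pass without male 10% fat replicate 2 or without replicate 3. With NZO/HlLtJ fitted alone neither Unc13a (edgeR adjusted p = 0.082) nor Rab3a (0.0971) passed, nor did Rab3a with limma on the deposited log2 values (0.0521). In all, 6 of the 9 genes had 44% fat libraries wholly below those on 10% fat, as had 16.5% of all genes tested.

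NZO/HlLtJ male 44% fat replicate 3 held the lowest value of all 45 libraries for 6 of the 9 genes and carried the transcripts of another strain. Without it, 4 of the 9 genes still fell: Rims2 at -0.61 (edgeR adjusted p = 0.000901), Rab27a at -0.50 (0.0124), Vamp2 at -0.37 (0.0291) and Syt13 at -0.53 (0.0316). Snap25 was then at -0.28 (adjusted p = 0.161), Syt7 at -0.32 (0.0678), Unc13a at -0.43 (0.123) and Rab3a at -0.33 (0.247). The median of the 9 was -0.37, and the share of all genes tested that fell without this library is not given here. Within number series 76, which held 1 male library per diet, the differences without a test were -0.82 for Rims2, -0.85 for Unc13a, -0.62 for both Syt13 and Rab27a, -0.51 for Syt7, -0.46 for Vamp2, -0.14 for Snap25, 0.06 for Stx1a and 0.22 for Rab3a.

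Marker genes of several cell types moved with this comparison. Of the 11 listed beta cell markers, 10 were measured and none was at 0, and their summed level was 55300 to 113200 CPM in NZO/HlLtJ males on 44% fat, against 139300 to 187800 CPM in those on 10% fat, with replicate 3 on 44% fat the lowest. Of these 10, 9 fell and none rose, with a median of -1.14. The 9 markers of endocrine cells in general summed to 15290 to 24780 CPM on 44% fat, against 27550 to 35300 CPM on 10% fat, and 6 of them fell. Macrophage markers, all 8 of which rose, summed to 474 to 855 CPM on 44% fat, against 81.2 to 257 CPM on 10% fat. The 20 acinar markers summed to 89930 to 200200 CPM on 44% fat, against 46750 to 66450 CPM on 10% fat, and none of them passed the test singly. Fibroblast and stellate markers, all 6 of which rose, summed to 1595 to 3385 CPM on 44% fat, against 283.5 to 1221 CPM on 10% fat. The 7 duct markers, of which 5 rose, summed to 1064 to 1776 CPM on 44% fat, against 472 to 891 CPM on 10% fat. All 7 lymphocyte markers rose, with sums of 15.4 to 50.3 CPM on 44% fat, against 2.73 to 4.77 CPM on 10% fat, and 4 of 6 Schwann cell markers rose and 1 fell, with sums of 34.7 to 43.3 CPM on 44% fat, against 21.6 to 34.4 CPM on 10% fat. All 4 measured mast cell and neutrophil markers rose, summing to 12.3 to 33.5 CPM on 44% fat, against 7.65 to 11.6 CPM on 10% fat. These sums, from fibroblasts to mast cells and neutrophils, did not overlap between the diets. The 8 neuronal markers summed to 41.6 to 57.8 CPM on 44% fat, against 42.5 to 69.3 CPM on 10% fat, and 1 of them fell. With an acinar score as a covariate, 8 of the 9 genes were again lower. The acinar sums did not overlap between the diets in these males, so acinar RNA and diet cannot be told apart in full. The part of the cell types in the result was not tested.

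Glucagon and insulin messages give the scale of these endocrine changes. In every group, Ins1 and Ins2 made up most of the beta cell marker sum. Ins2 was at 46240 ± 15610 CPM in NZO/HlLtJ males on 44% fat and 83360 ± 11090 CPM in those on 10% fat (SD, n = 3 each), and Ins1 was at 25370 ± 10510 CPM on 44% fat and 50680 ± 7992 CPM on 10% fat. Gcg was at 13630 ± 3624 CPM on 44% fat and 8114 ± 2607 CPM on 10% fat, and Sst at 1289 ± 160 CPM on 44% fat and 1281 ± 219 CPM on 10% fat.

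**Figure D2:**
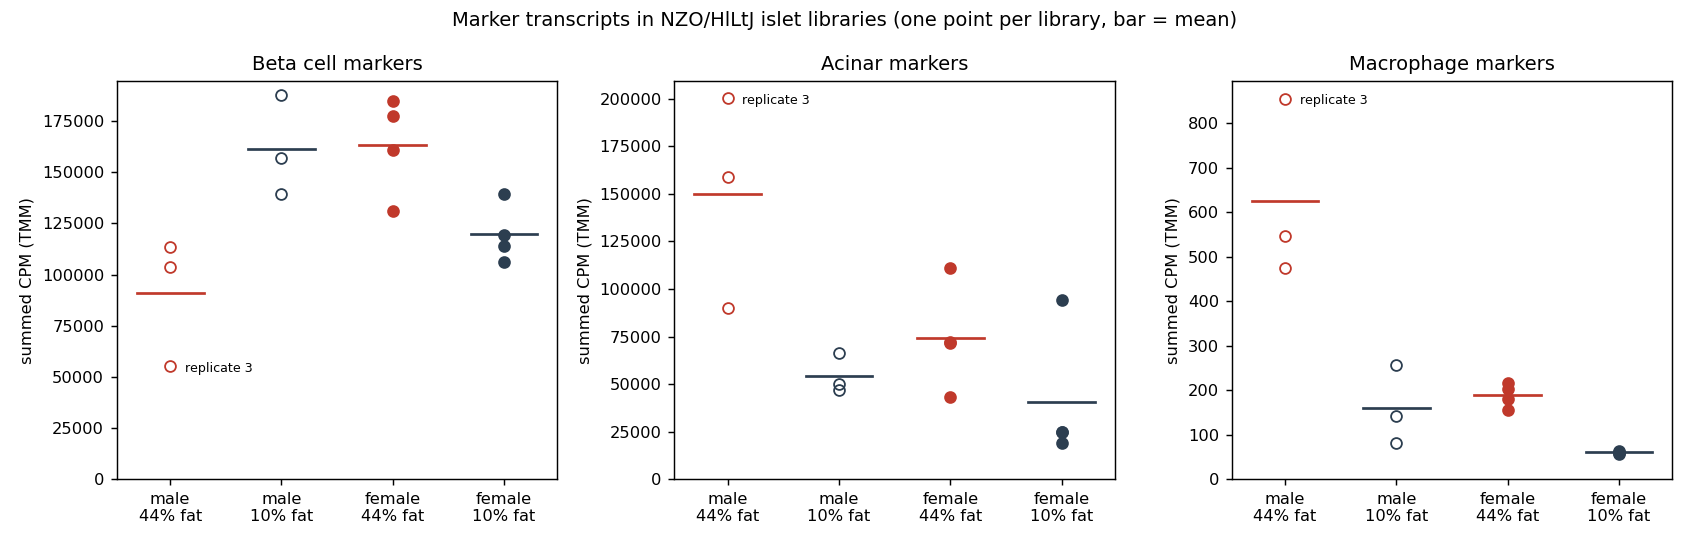
Summed CPM of beta cell, acinar and macrophage markers in each NZO/HlLtJ library (linear axes), by sex and diet, with replicate 3 of the males on 44% fat named; bars are group means of 3 or 4 libraries. Male libraries on 44% fat have beta cell sums between 55300 and 113200 CPM, below all males on 10% fat and all females on 44% fat but overlapping females on 10% fat, and macrophage sums between 474 and 855 CPM, above every other NZO/HlLtJ library. Beta cell sums are mostly Ins1 and Ins2.

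In NZO/HlLtJ females, 2 of the 9 genes fell on 44% fat and none rose, where 7.83% of all genes tested fell and 9.37% rose. They were Stx1a, which had not passed in males, and Rims2. Stx1a had 7.52, 5.68, 6.95 and 7.02 CPM in females on 44% fat, against 9.76, 9.43, 9.17 and 9.25 CPM in those on 10% fat. No library on 44% fat reached the lowest control library, and Stx1a fell by 0.47 on the log2 scale (SE 0.13, edgeR adjusted p = 0.0124). Without female 44% fat replicate 2 its change was -0.39 and no longer passed. Rims2 had 33.2, 29.4, 29.0 and 27.2 CPM on 44% fat, against 38.5, 38.7, 40.5 and 40.7 CPM on 10% fat. Its groups were apart and tight, with a change of -0.42 (SE 0.10, edgeR adjusted p = 0.00239).

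The groups of these 2 genes did not overlap, which held for 9.53% of all genes tested in the direction of a fall. The other 7 genes did not pass in NZO/HlLtJ females, and their groups overlapped. Syt13 ran from 1266 to 1499 CPM on 44% fat and from 1178 to 1353 CPM on 10% fat, a change of 0.14, and Rab27a from 214 to 242 CPM on 44% fat and from 218 to 229 CPM on 10% fat, a change of 0.02. Vamp2 changed by -0.01, Snap25 by 0.11, Unc13a by 0.06 and Rab3a by 0.23. Syt7, with 235 to 309.9 CPM on 44% fat and 298 to 346 CPM on 10% fat, changed by -0.21 (edgeR adjusted p = 0.15). The median of the 9 genes was 0.02. In females the beta cell marker sum was 130900 to 184700 CPM on 44% fat and 106100 to 139200 CPM on 10% fat, with 2 markers higher and 1 lower by the test. Most of this sum was Ins1 and Ins2, at means of 51180 and 84710 CPM on 44% fat. Other listed beta cell markers had lower means on 44% fat. Slc2a2 was at 401.5 CPM on 44% fat and 560 CPM on 10% fat, and Ucn3 at 213 and 278 CPM. The macrophage sum was 156 to 216 CPM on 44% fat and 58.1 to 64.6 CPM on 10% fat, with all 8 markers higher. The delta cell sum was 1237 to 1694 CPM on 44% fat and 2325 to 2654 CPM on 10% fat, with 3 of 4 markers lower, and the alpha cell sum 14660 to 16250 CPM on 44% fat and 18460 to 22280 CPM on 10% fat, with 4 of 8 lower and 2 higher. The duct sum was 529 to 905.5 CPM on 44% fat and 416 to 458 CPM on 10% fat, and the fibroblast and stellate sum 555 to 1032 CPM on 44% fat and 308 to 461 CPM on 10% fat, each with 3 markers higher. The gamma cell sum was 1394 to 2081 CPM on 44% fat and 2318 to 4254 CPM on 10% fat. The delta, alpha, gamma, duct, fibroblast and macrophage sums did not overlap between the diets, and their part in the changes of Stx1a and Rims2 was not tested. Within series 76 (2 libraries per diet), Stx1a differed by -0.55 and Rims2 by -0.30.

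The diet effect was tested for a difference between the sexes of NZO/HlLtJ. It was lower in males for 5 of the 9 genes, where 5.58% of all genes tested were lower. The difference, male minus female, was -0.92 for Syt13 (SE 0.24, edgeR adjusted p = 0.0116), -0.75 for Rab3a (SE 0.24, adjusted p = 0.0376), -0.69 for Rab27a (SE 0.18, adjusted p = 0.0126), -0.62 for Snap25 (SE 0.20, adjusted p = 0.0371) and -0.49 for Vamp2 (SE 0.15, adjusted p = 0.0303). For Rims2, which fell in both sexes, the difference was -0.30 (edgeR adjusted p = 0.194), and for Stx1a it was 0.51 in the other direction (adjusted p = 0.0996). Without male 44% fat replicate 3, none of the 9 differences passed in edgeR, with adjusted p of 0.0938 to 0.799, and the values were -0.67 for Syt13, -0.56 for Rab3a, -0.52 for Rab27a, -0.39 for Snap25 and -0.36 for Vamp2. The 5 became 2 without female 10% fat replicate 2, female 44% fat replicate 2 or male 10% fat replicate 2, and 3 without replicate 3 of female 10% fat, female 44% fat or male 10% fat. With library totals alone as the scaling, or with NZO/HlLtJ fitted alone, 0 of the 9 passed. With the number series as a factor, Stx1a passed at 0.77 (edgeR adjusted p = 0.00723) and Snap25 did not, at -0.47 (0.12). The diet effect, male minus female, passed for 0 of the 9 genes in CAST/EiJ and in C57BL/6J in edgeR, where 0.0295% and 0.0% of all genes did, and 0 had an unadjusted p under 0.05. Within a sex the number series and diet are partly confounded, so for this difference they cannot be told apart in full.

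**Figure D3:**
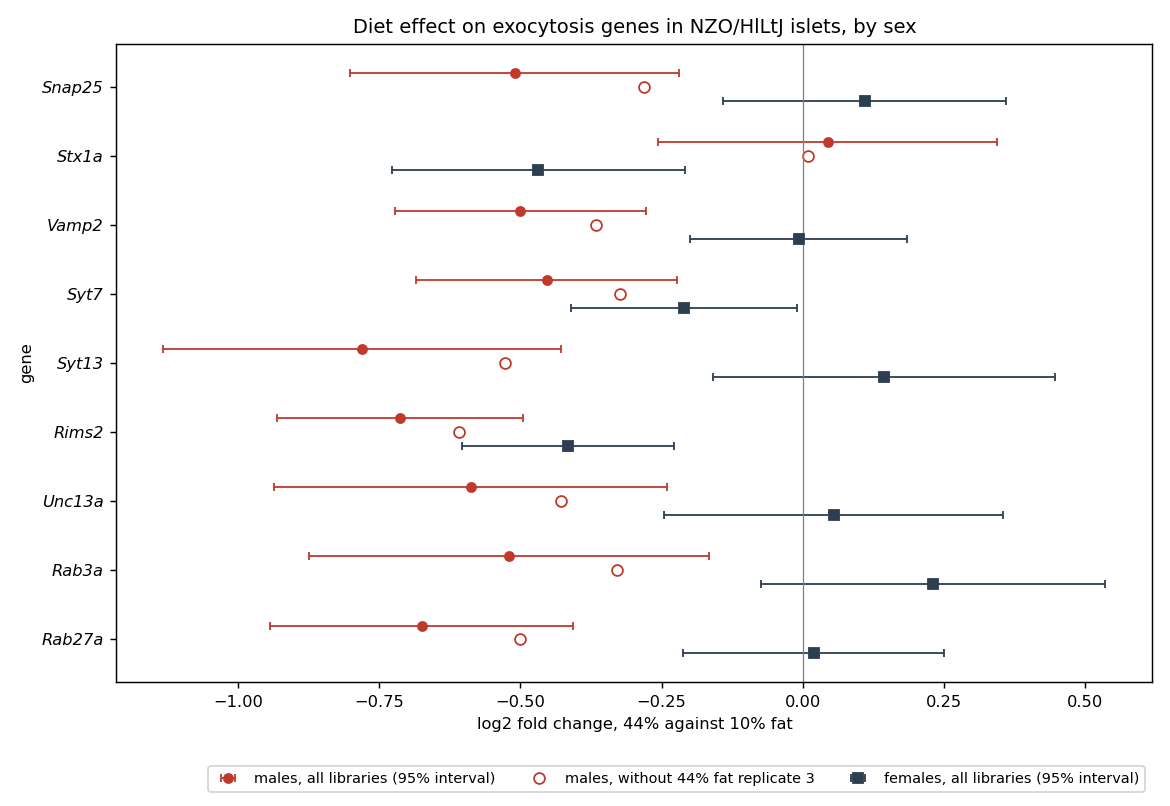
Log2 fold change of the 9 genes, 44% over 10% fat, in NZO/HlLtJ males (circles) and females (squares) with 95% intervals from edgeR; open circles are males without 44% fat replicate 3. In males 8 of 9 genes lie below 0 by the test, in females Stx1a and Rims2 do, and leaving out replicate 3 moves the males towards 0.

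As the mean over both sexes of NZO/HlLtJ, 5 of the 9 genes fell on 44% fat, where 17.3% of all genes tested fell. Rims2 changed by -0.56 (SE 0.07, edgeR adjusted p = 3.87e-07), Syt7 by -0.33 (SE 0.08, adjusted p = 0.000949), Rab27a by -0.33 (SE 0.09, adjusted p = 0.00418), Vamp2 by -0.25 (SE 0.07, adjusted p = 0.00724) and Syt13 by -0.32 (SE 0.12, adjusted p = 0.0327). Stx1a (-0.21), Snap25 (-0.20), Unc13a (-0.27) and Rab3a (-0.14) did not pass. Without male 44% fat replicate 3, Rims2 (-0.51), Syt7 (-0.27) and Rab27a (-0.24) passed, and Vamp2 and Syt13 were at -0.19 each. The Syt13 call ended in 6 of the 14 fits that left out 1 NZO/HlLtJ library, that one among them, and the Vamp2 call in that one alone. Syt13 also did not pass with the acinar score as a covariate (-0.26, edgeR adjusted p = 0.0737), with RLE factors (-0.28, 0.0505) or with NZO/HlLtJ fitted alone (-0.31, 0.104).

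In the other strains no member passed a diet test. In CAST/EiJ the mean changes over the sexes ran from -0.28 (Stx1a, edgeR adjusted p = 0.532) to 0.03 (Rims2), with Vamp2, Syt13, Snap25 and Rab27a at -0.08 each, Rab3a at -0.05, Syt7 at -0.01 and Unc13a near 0, and 0 of the 9 genes passed, where 0.0443% of all genes tested did. Stx1a was also the only member with an unadjusted p under 0.05 there. In C57BL/6J the mean changes ran from -0.07 (Rab3a and Syt13) to 0.10 (Unc13a), with Syt7 at -0.05, Rab27a at -0.04, Rims2 at -0.03, Stx1a at 0.01, Vamp2 at 0.03 and Snap25 at 0.05, and again 0 of the 9 passed in edgeR, where 0.0246% of all genes tested did, with 0 members at an unadjusted p under 0.05. Within single sexes the count was also 0 in CAST/EiJ males and females (0.00985% and 0.256% of all genes) and in C57BL/6J males and females (0.0443% and 0.0%). DESeq2, limma-trend and limma on the deposited log2 values likewise passed 0 of the 9 genes in each of these comparisons.

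The diet effect itself was compared between strains, and in NZO/HlLtJ it differed for 2 of the 9 genes from each other strain. Relative to CAST/EiJ, the effect in NZO/HlLtJ was lower for Rims2 (-0.59, SE 0.10, edgeR adjusted p = 0.0001) and Syt7 (-0.33, SE 0.11, adjusted p = 0.0240), where 12.7% of all genes tested were lower. Relative to C57BL/6J it was lower for Rims2 (-0.53, SE 0.10, edgeR adjusted p = 0.000446) and Vamp2 (-0.29, SE 0.10, adjusted p = 0.0429), where 9.12% were lower. These comparisons share the NZO/HlLtJ libraries. Without NZO/HlLtJ male 44% fat replicate 3, Rims2 alone passed, at -0.54 against CAST/EiJ (adjusted p = 0.000437) and -0.48 against C57BL/6J (adjusted p = 0.00209). The Syt7 call also ended without NZO/HlLtJ male 10% fat replicate 1 or 2, CAST/EiJ female 10% fat replicate 4 or CAST/EiJ male 10% fat replicate 3. The Vamp2 call ended in 17 of the fits that left out 1 of the 14 NZO/HlLtJ or 16 C57BL/6J libraries. With the number series as a factor, Syt7 (-0.29, edgeR adjusted p = 0.0281) and Rab27a (-0.30, 0.038) also passed against C57BL/6J. Vamp2 did not pass with RLE factors (0.061), the acinar covariate (0.102) or limma on the deposited log2 values (0.0571), nor did Syt7 against CAST/EiJ with those strains fitted alone (0.0549). The effect in CAST/EiJ minus that in C57BL/6J passed for 0 of the 9 genes in edgeR, where 0.0197% of all genes did, and 1 member had an unadjusted p under 0.05.

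**Figure D4:**
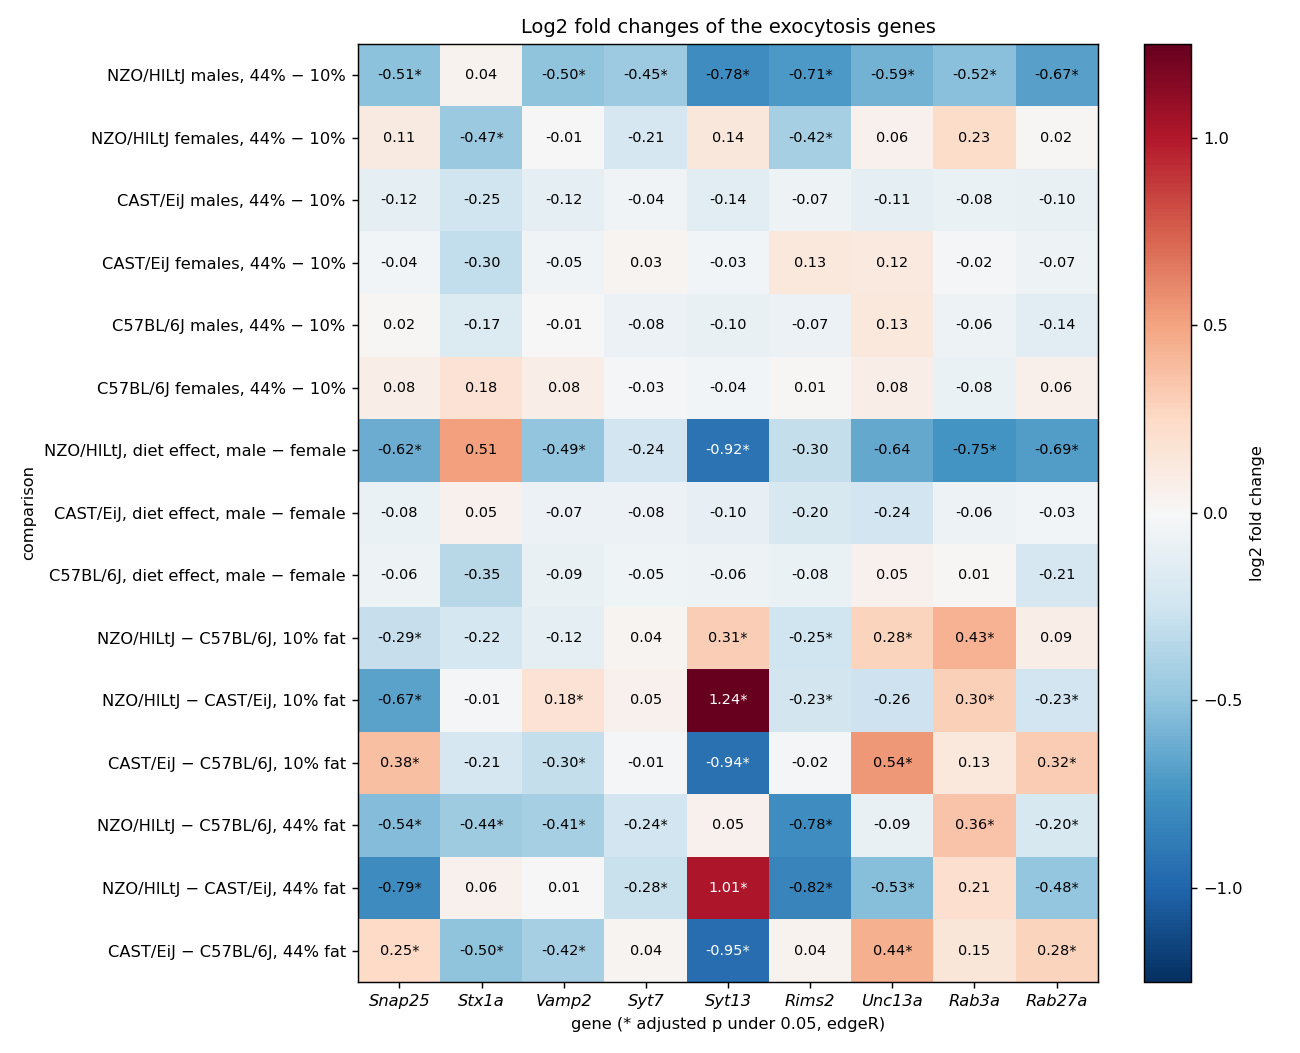
Log2 fold changes of the 9 genes (columns, by role) in 15 comparisons (rows), coloured from lower (blue) to higher (red) in the first-named group, with the value in each cell and an asterisk where the edgeR adjusted p is under 0.05. The NZO/HlLtJ male diet row holds 8 asterisks and the diet rows of CAST/EiJ and C57BL/6J hold none.

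Strains were compared on the control diet, as means over the sexes, with 7 libraries of NZO/HlLtJ, 7 of CAST/EiJ and 8 of C57BL/6J. How reads that carry strain variants were matched was not given in the sources used here. A difference in counts can depend on it. Of the 9 genes, NZO/HlLtJ against CAST/EiJ passed for 6 (3 higher, 3 lower, where 27.6% and 27.2% of all genes tested did), NZO/HlLtJ against C57BL/6J for 5 (3 higher, 2 lower; 22.8% and 21.0%) and CAST/EiJ against C57BL/6J for 5 (3 higher, 2 lower; 24.4% and 23.6%). The comparisons share libraries.

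Syt13 differed most. On 10% fat its lowest, median and highest values were 1178, 1251 and 1353 CPM in NZO/HlLtJ, 358.5, 486 and 723 CPM in CAST/EiJ, and 800.2, 1020 and 1149 CPM in C57BL/6J. The 3 strains did not overlap. NZO/HlLtJ exceeded CAST/EiJ by 1.24 on the log2 scale (SE 0.12, edgeR adjusted p = 2.09e-11) and C57BL/6J by 0.31 (SE 0.11, adjusted p = 0.0272), and CAST/EiJ was below C57BL/6J by -0.94 (SE 0.12, adjusted p = 9.39e-09). Within the 3 number series the differences ran from 0.89 to 1.82 for NZO/HlLtJ over CAST/EiJ, 0.18 to 0.34 for NZO/HlLtJ over C57BL/6J and -1.18 to -0.71 for CAST/EiJ over C57BL/6J. For NZO/HlLtJ on 10% fat, the within-series values are of females alone in series 80 and of males alone in series 89. Some rest on 1 library of a strain. Sex and series therefore cannot be told apart in these ranges.

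Snap25 was ordered the other way. On 10% fat its lowest, median and highest values were 60.6, 69.1 and 77.7 CPM in NZO/HlLtJ, 87.8, 108 and 130.6 CPM in CAST/EiJ, and 67.5, 87.4 and 94.2 CPM in C57BL/6J. NZO/HlLtJ and CAST/EiJ did not overlap, while C57BL/6J overlapped both. NZO/HlLtJ was lower than CAST/EiJ by -0.67 (SE 0.10, edgeR adjusted p = 3.44e-07) and than C57BL/6J by -0.29 (SE 0.09, adjusted p = 0.0118), and CAST/EiJ was higher than C57BL/6J by 0.38 (SE 0.09, adjusted p = 0.00102). Within series the first of these ran from -0.81 to -0.51, the second from -0.39 to -0.26 and the third from 0.35 to 0.42.

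The priming gene Unc13a was highest in CAST/EiJ, with 126, 144 and 159 CPM as lowest, median and highest, against 87.6, 96.4 and 134.5 CPM in C57BL/6J on 10% fat, a difference of 0.54 (SE 0.11, edgeR adjusted p = 0.00011) that ran from 0.45 to 0.72 within series. NZO/HlLtJ, with 85.7, 119 and 157 CPM, overlapped both, and was 0.28 above C57BL/6J (SE 0.11, adjusted p = 0.0421), although within series that difference ran from -0.24 to 0.48. The call ended with the number series as a factor (0.27, edgeR adjusted p = 0.0519), with RLE factors, in limma-trend, in limma on the deposited log2 values and in DESeq2 (adjusted p of 0.0518 to 0.0921), while against CAST/EiJ Unc13a was lower with RLE factors, in both limma fits and in DESeq2 (-0.30 to -0.27, adjusted p of 0.0382 to 0.0449). Rims2 was lower in NZO/HlLtJ than in CAST/EiJ by -0.23 (SE 0.07, edgeR adjusted p = 0.0085; -0.56 to 0.05 within series) and than in C57BL/6J by -0.25 (SE 0.07, adjusted p = 0.00453; -0.56 to -0.10 within series).

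Of the vesicle GTPases on 10% fat, Rab3a was at 73.9 to 116 CPM in NZO/HlLtJ, at 69.9 to 90.7 CPM in CAST/EiJ and at 49.5 to 84.8 CPM in C57BL/6J. NZO/HlLtJ overlapped both others but was higher than C57BL/6J by 0.43 (SE 0.11, edgeR adjusted p = 0.00235) and than CAST/EiJ by 0.30 (SE 0.12, adjusted p = 0.0302). Rab27a was at 208 to 247 CPM in NZO/HlLtJ, at 209 to 315 CPM in CAST/EiJ and at 174 to 239.6 CPM in C57BL/6J. CAST/EiJ was higher than C57BL/6J by 0.32 (SE 0.09, edgeR adjusted p = 0.00219), and NZO/HlLtJ was lower than CAST/EiJ by -0.23 (SE 0.09, adjusted p = 0.0264; -0.41 to 0.12 within series).

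Vamp2 was lower in CAST/EiJ, with 110.3, 116 and 141 CPM as lowest, median and highest, than in C57BL/6J, with 129, 150.4 and 166 CPM on 10% fat. The difference was -0.30 (SE 0.07, edgeR adjusted p = 0.000661), and NZO/HlLtJ exceeded CAST/EiJ by 0.18 (SE 0.07, adjusted p = 0.0426). In that comparison Vamp2 did not pass with RLE factors (edgeR adjusted p = 0.052), with those strains fitted alone (0.0678) or in limma on the deposited log2 values (0.0552). Rab3a did not pass against CAST/EiJ in limma on the deposited log2 values (0.0573), nor Rab27a with the acinar covariate (0.0541). Stx1a and Syt7 passed in none of the strain comparisons on 10% fat in the 12-group edgeR fit. With the number series as a factor, Stx1a was lower than in C57BL/6J both in NZO/HlLtJ (-0.24, edgeR adjusted p = 0.022) and in CAST/EiJ (-0.24, 0.0203), DESeq2 also called it in NZO/HlLtJ (0.0449), and it passed in 2 and 4 of the fits that left out 1 library. Leaving out single libraries brought the 5 of NZO/HlLtJ against C57BL/6J to 3 (without NZO/HlLtJ female 10% fat replicate 4, NZO/HlLtJ male 10% fat replicate 2 or C57BL/6J female 10% fat replicate 4) and the 6 against CAST/EiJ to 3 (without NZO/HlLtJ male 10% fat replicate 3). Each comparison was refitted once per library it uses, 7 of NZO/HlLtJ with 8 of C57BL/6J or 7 of CAST/EiJ. The calls that ended most often against C57BL/6J were those of Unc13a (10 fits) and Syt13 (4 fits) in NZO/HlLtJ. Against CAST/EiJ they were those of Vamp2 (9 fits) and Rab3a (6 fits) in NZO/HlLtJ. The Rab27a call against CAST/EiJ ended without CAST/EiJ male 10% fat replicate 1 or NZO/HlLtJ male 10% fat replicate 2.

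On 44% fat the strains were compared in the same way, with 7 libraries of NZO/HlLtJ and 8 of each other strain. For NZO/HlLtJ on this diet, the within-series values are of males alone in series 80 and of females alone in series 89. Sex and series again cannot be told apart in those ranges. NZO/HlLtJ passed against CAST/EiJ for 6 of the 9 genes (1 higher, 5 lower, where 36.2% and 34.7% of all genes tested did) and against C57BL/6J for 7 (1 higher, 6 lower; 32.4% and 35.5%). CAST/EiJ passed against C57BL/6J for 6 (3 higher, 3 lower; 24.8% and 25.8%). Rims2 stood apart: its lowest, median and highest values were 16.02, 27.2 and 33.2 CPM in NZO/HlLtJ, 37.3, 40.7 and 48.7 CPM in CAST/EiJ, and 37.4, 41.0 and 44.5 CPM in C57BL/6J. Every NZO/HlLtJ library lay below every library of the other strains. The difference was -0.82 against CAST/EiJ (SE 0.07, edgeR adjusted p = 7.62e-13; -1.18 to -0.47 within series) and -0.78 against C57BL/6J (SE 0.07, adjusted p = 6.1e-12; -1.06 to -0.47 within series).

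Snap25 on 44% fat was at 34.0 to 78.5 CPM in NZO/HlLtJ, at 86.8 to 121 CPM in CAST/EiJ and at 79.1 to 99.6 CPM in C57BL/6J. NZO/HlLtJ lay wholly below both, by -0.79 against CAST/EiJ (edgeR adjusted p = 2.88e-09) and -0.54 against C57BL/6J (adjusted p = 5.36e-06). Syt13 was at 453.5 to 1499 CPM in NZO/HlLtJ, at 433.5 to 599 CPM in CAST/EiJ and at 813 to 1080 CPM in C57BL/6J. CAST/EiJ lay wholly below C57BL/6J, by -0.95 (edgeR adjusted p = 1.8e-09), and NZO/HlLtJ was higher than CAST/EiJ by 1.01 (adjusted p = 5.55e-10), although its 2 groups overlapped. NZO/HlLtJ did not pass against C57BL/6J for Syt13.

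Stx1a was lower than in C57BL/6J in both other strains on 44% fat, by -0.44 in NZO/HlLtJ (edgeR adjusted p = 0.000154) and by -0.50 in CAST/EiJ (adjusted p = 2.37e-05). Its lowest, median and highest values were 5.45, 6.76 and 7.52 CPM in NZO/HlLtJ, 4.82, 6.46 and 7.37 CPM in CAST/EiJ, and 7.30, 8.59 and 11.3 CPM in C57BL/6J, so the lowest C57BL/6J library reached into both. Vamp2 was likewise lower than in C57BL/6J, by -0.41 in NZO/HlLtJ (edgeR adjusted p = 5.86e-06) and by -0.42 in CAST/EiJ (adjusted p = 3.07e-06), and the CAST/EiJ libraries, at 99.6 to 134 CPM, lay wholly below those of C57BL/6J, at 142 to 166 CPM. Syt7 was lower in NZO/HlLtJ than in CAST/EiJ by -0.28 (adjusted p = 0.00137; -0.65 to -0.05 within series) and than in C57BL/6J by -0.24 (adjusted p = 0.00503; -0.52 to 0.04 within series).

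Rab27a on 44% fat was lower in NZO/HlLtJ than in CAST/EiJ by -0.48 (edgeR adjusted p = 7.49e-06), and its difference of -0.20 from C57BL/6J (adjusted p = 0.0398) did not pass without NZO/HlLtJ male 44% fat replicate 3 or in 8 more of the fits that left out 1 library. Within series that difference ran from -0.63 to 0.48: males had 143 CPM in NZO/HlLtJ and 203 CPM in C57BL/6J, and females 229 CPM in NZO/HlLtJ and 213 CPM in C57BL/6J, as means on 44% fat. Rab3a was higher in NZO/HlLtJ than in C57BL/6J by 0.36 (edgeR adjusted p = 0.00637), but within series this ran from -0.31 to 1.08, and without NZO/HlLtJ male 44% fat replicate 1 it did not pass (0.25). Unc13a was lower in NZO/HlLtJ than in CAST/EiJ by -0.53 (edgeR adjusted p = 7.99e-05) and higher in CAST/EiJ than in C57BL/6J by 0.44 (adjusted p = 0.000761). CAST/EiJ also exceeded C57BL/6J for Rab27a by 0.28 (adjusted p = 0.00484) and for Snap25 by 0.25 (adjusted p = 0.0219), which did not pass without CAST/EiJ male 44% fat replicate 4 or C57BL/6J male 44% fat replicate 1. Rims2 (0.04), Syt7 (0.04) and Rab3a (0.15) did not pass between CAST/EiJ and C57BL/6J on 44% fat.

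Without NZO/HlLtJ male 44% fat replicate 3, the NZO/HlLtJ strain calls on 44% fat other than Rab27a against C57BL/6J still passed in edgeR. Against CAST/EiJ the values were then -0.67 for Snap25, -0.21 for Syt7, 1.13 for Syt13, -0.77 for Rims2, -0.45 for Unc13a and -0.39 for Rab27a, and Rab3a now passed at 0.30 (edgeR adjusted p = 0.0185). Against C57BL/6J they were -0.43 for Snap25, -0.46 for Stx1a, -0.34 for Vamp2, -0.18 for Syt7, -0.73 for Rims2 and 0.45 for Rab3a. When the 3 CAST/EiJ female libraries with transcripts of another strain and C57BL/6J female 44% fat replicate 2 were left out as well, Syt7 against C57BL/6J no longer passed, at -0.16 (edgeR adjusted p = 0.0774), nor did Rab3a against CAST/EiJ, at 0.26 (0.149), and CAST/EiJ against C57BL/6J still gave 6 of the 9. Rab27a against C57BL/6J also did not pass with the acinar covariate (-0.12) or with those strains fitted alone (-0.18), and Rab3a against CAST/EiJ passed with the acinar covariate (0.27, edgeR adjusted p = 0.0491).

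Marker sums also set the strains apart. On 44% fat the macrophage sum was 156 to 855 CPM in NZO/HlLtJ, 76.4 to 116 CPM in CAST/EiJ and 61.5 to 111 CPM in C57BL/6J, the endothelial sum 694 to 989 CPM in NZO/HlLtJ, 395 to 508 CPM in CAST/EiJ and 383 to 530.3 CPM in C57BL/6J, and the duct sum 529 to 1776 CPM in NZO/HlLtJ, 297 to 426 CPM in CAST/EiJ and 270.2 to 424 CPM in C57BL/6J. The delta cell sum was 1188 to 1694 CPM in NZO/HlLtJ, 1720 to 2275 CPM in CAST/EiJ and 2436 to 5598 CPM in C57BL/6J, and the neuronal sum 41.6 to 58.9 CPM in NZO/HlLtJ, 76.3 to 115 CPM in CAST/EiJ and 65.1 to 119 CPM in C57BL/6J. In these 5 sums NZO/HlLtJ overlapped neither other strain. The alpha cell sum, at 12480 to 18390 CPM in NZO/HlLtJ, lay below CAST/EiJ, at 22380 to 33220 CPM, and the fibroblast and stellate sum, at 555 to 3385 CPM in NZO/HlLtJ, above C57BL/6J, at 134 to 399 CPM. On 10% fat the endothelial sum was 664 to 799 CPM in NZO/HlLtJ, 426 to 587 CPM in CAST/EiJ and 349 to 496.5 CPM in C57BL/6J, and the duct sum 416 to 891 CPM in NZO/HlLtJ and 295 to 407 CPM in CAST/EiJ, again without overlap. Their part in the strain differences was not tested.

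The last comparisons set males against females. On 10% fat, averaged over strains, 0 of the 9 genes passed in edgeR, where 0.911% of all genes tested did, and 1 of the 9 had an unadjusted p under 0.05. In NZO/HlLtJ on 10% fat, 2 were lower in males (2.94% of all genes), Stx1a by -0.63 (edgeR adjusted p = 0.00622) and Rims2 by -0.36 (adjusted p = 0.0321), both with separate groups. Males and females were apart for 2 more members that did not pass: Syt7, at 225 to 292 CPM in males and 298 to 346 CPM in females, and Snap25, which was higher in males, at 69.7 to 77.7 CPM in males and 60.6 to 69.1 CPM in females. That made 4 of the 9, and 14.7% of all genes tested were apart in either direction. The alpha cell sum was 7599 to 14720 CPM in males and 18460 to 22280 CPM in females, the delta cell sum 1097 to 1511 CPM in males and 2325 to 2654 CPM in females, and the macrophage sum 81.2 to 257 CPM in males and 58.1 to 64.6 CPM in females. The beta cell sum was 139300 to 187800 CPM in males and 106100 to 139200 CPM in females, the duct sum 472 to 891 CPM in males and 416 to 458 CPM in females, the endothelial sum 734 to 799 CPM in males and 664 to 704 CPM in females, and the lymphocyte sum 2.73 to 4.77 CPM in males and 1.18 to 1.81 CPM in females. Most of the beta cell sum was Ins1 and Ins2. Means of the beta cell markers Slc2a2 (457 CPM in males, 560 CPM in females) and Ucn3 (249.5 and 278 CPM) were lower in males. None of these marker sums overlapped between the sexes, and their part in the differences of Stx1a, Rims2, Syt7 and Snap25 was not tested. With the number series as a factor Stx1a alone passed, and with NZO/HlLtJ fitted alone neither did. Neither of the 2 passed without male 10% fat replicate 3, and Rims2 did not pass without female 10% fat replicate 2, 3 or 4.

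On 44% fat, 8 of the 9 genes were lower in NZO/HlLtJ males than in NZO/HlLtJ females, where 16.9% of all genes tested were lower. The differences were -0.89 for Syt13 (edgeR adjusted p = 0.000123), -0.71 for Rab3a (0.00139), -0.68 for Rab27a (0.000113), -0.66 for Unc13a (0.00244), -0.65 for Rims2 (1.37e-05), -0.52 for Syt7 (0.000421), -0.51 for Vamp2 (0.000325) and -0.45 for Snap25 (0.0120). For 6 genes (Vamp2, Syt7, Syt13, Rims2, Rab3a and Rab27a) the highest male lay below the lowest female, as for 16.4% of all genes tested. The beta cell sum was 55300 to 113200 CPM in males and 130900 to 184700 CPM in females, with 9 of 10 markers lower, and the macrophage sum 474 to 855 CPM in males and 156 to 216 CPM in females, with all 8 higher. The general endocrine sum was 15290 to 24780 CPM in males and 27400 to 44430 CPM in females, the fibroblast and stellate sum 1595 to 3385 CPM in males and 555 to 1032 CPM in females, the duct sum 1064 to 1776 CPM in males and 529 to 905.5 CPM in females, the endothelial sum 791 to 989 CPM in males and 694 to 760.5 CPM in females, the lymphocyte sum 15.4 to 50.3 CPM in males and 1.31 to 11.99 CPM in females, and the Schwann cell sum 34.7 to 43.3 CPM in males and 23.7 to 32.3 CPM in females. None of these sums overlapped, and their part in these differences was not tested. These males were of series 76 and 80 and these females of series 76 and 89, and with the series as a factor 8 of the 9 passed. This comparison uses the same 3 male libraries as the diet comparison, and without replicate 3 Snap25 (-0.22) and Unc13a (-0.50) no longer passed, while Syt13 was at -0.64, Rims2 at -0.55, Rab3a at -0.52, Rab27a at -0.51, Syt7 at -0.39 and Vamp2 at -0.38. With NZO/HlLtJ fitted alone Snap25 did not pass either (edgeR adjusted p = 0.0583). Averaged over the strains, 5 were lower in males on 44% fat (5.42% of all genes), and without that library 1 was, Rims2 at -0.21 (edgeR adjusted p = 0.0297). In CAST/EiJ and in C57BL/6J alone 0 of the 9 genes passed on either diet in edgeR, where 0.133% and 0.0886% of all genes did on 10% fat and 0.384% and 0.0985% on 44% fat, and 0 had an unadjusted p under 0.05.

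Other genes of regulated exocytosis were taken from a list of 85, of which 82 were in the matrix and tested. In NZO/HlLtJ males on 44% fat, 29 of the 82 fell and 7 rose (35.4% and 8.54%, beside 15.1% and 17.0% of all genes tested), with a median of -0.20 beside -0.03 over all genes. Without male 44% fat replicate 3 the counts were 15 and 4, and the shares of all genes in that fit are not given here. By class, 7 of 15 regulators of SNARE assembly (Munc18, tomosyn and complexin families) fell and 0 rose, as did 6 and 1 of 14 priming and active zone genes, 8 and 4 of 20 Rabs and their effectors, 3 and 1 of 11 SNAREs, 2 and 1 of 13 synaptotagmins and 3 and 0 of 9 exocyst subunits. Without replicate 3 those that fell and rose were 4 and 0 of the SNARE regulators, 4 and 1 of the priming genes, 4 and 3 of the Rabs and effectors, 1 and 0 of the SNAREs, 1 and 0 of the synaptotagmins and 1 and 0 of the exocyst subunits. In NZO/HlLtJ females 17 of the 82 fell and 7 rose (20.7% and 8.54%, beside 7.83% and 9.37% of all genes tested). In CAST/EiJ and in C57BL/6J the count was 0 in each direction in edgeR.

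Sytl4 (granuphilin), a Rab27a effector that docks insulin granules, was at 129 ± 45.8 CPM in NZO/HlLtJ males on 44% fat and 356 ± 81.8 CPM in those on 10% fat (SD, n = 3 each), a log2 change of -1.46 (edgeR adjusted p = 2.96e-06). Syt14, a synaptotagmin, was at 43.0 ± 8.51 CPM on 44% fat and 93.1 ± 19.7 CPM on 10% fat, and changed by -1.11 (edgeR adjusted p = 5.55e-07). Rph3al (Noc2), an effector of Rab3 and Rab27, was at 45.1 ± 8.51 CPM on 44% fat and 81.3 ± 6.99 CPM on 10% fat, and changed by -0.85 (edgeR adjusted p = 2.32e-06). All 3 fell, as Rab27a and Rab3a did. Without replicate 3 of the males on 44% fat these 3 still passed, at -1.21 for Sytl4, -0.96 for Syt14 and -0.70 for Rph3al. Rab27a also passed then, and Rab3a did not, at -0.33.

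The genes that rose with the smallest adjusted p in these males were at low levels. Unc13d (Munc13-4), a relative of Unc13a known from granule release in blood cells, was at 4.58 ± 1.87 CPM in NZO/HlLtJ males on 44% fat and 1.16 ± 0.206 CPM in those on 10% fat (SD, n = 3 each), a change of 1.98 (edgeR adjusted p = 0.000411). Rab3il1, an exchange factor for Rab3, was at 9.71 ± 2.04 CPM on 44% fat and 3.84 ± 1.22 CPM on 10% fat, and Sytl2, another Rab27 effector, at 7.43 ± 1.78 CPM on 44% fat and 3.16 ± 0.862 CPM on 10% fat. The Rab27a paralogue Rab27b rose in the mean over the sexes by 1.08 (edgeR adjusted p = 0.0023), with 17.8 ± 5.79 CPM in males on 44% fat and 5.58 ± 1.42 CPM in males on 10% fat. Without replicate 3 the changes in males were 1.60 for Unc13d (edgeR adjusted p = 0.0112), 1.17 for Rab3il1 (0.0067) and 1.02 for Sytl2 (0.0292), and that of Rab27b over the sexes was 0.94 (0.0134). Macrophage marker sums rose in the same libraries, as given above, and their part in these 4 genes was not tested.

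In NZO/HlLtJ females the active zone gene Erc2 fell to 9.78 ± 1.97 CPM on 44% fat, against 22.4 ± 3.63 CPM on 10% fat (SD, n = 4 each; change -1.20, edgeR adjusted p = 5.86e-06). Syt9, a calcium sensor, fell by 0.52 on the log2 scale (adjusted p = 0.00211), and Syt3 rose by 0.66 (adjusted p = 0.000688). The diet effect was lower in males than in females for Sytl4 (-1.30, edgeR adjusted p = 0.00236), Syt14 (-0.85, adjusted p = 0.00248) and Pclo, the active zone scaffold piccolo (-0.996, adjusted p = 0.0036), and higher for Syt9 (0.73, adjusted p = 0.00945). Without male 44% fat replicate 3 these 4 were -1.04, -0.69, -0.82 and 0.90 and still passed in edgeR, while 4 of the 82 genes passed in all, against 14 with it (17.1%, beside 10.0% of all genes tested). Relative to CAST/EiJ, the NZO/HlLtJ diet effect was lower for Rims3, a short relative of Rims2 (-1.26, edgeR adjusted p = 9.8e-05; -1.14 without that library).

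Between strains on 10% fat, NZO/HlLtJ against CAST/EiJ gave 19 higher and 29 lower of the 82 genes, NZO/HlLtJ against C57BL/6J 12 and 28, and CAST/EiJ against C57BL/6J 18 and 21. As shares these were 23.2% and 35.4%, 14.6% and 34.1%, and 22.0% and 25.6%, beside 27.6% and 27.2%, 22.8% and 21.0%, and 24.4% and 23.6% of all genes tested. Madd, an exchange factor for Rab3, was 1.61 log2 units lower in NZO/HlLtJ than in CAST/EiJ (fold change -1.61, edgeR adjusted p = 6.56e-12) and 1.32 higher in CAST/EiJ than in C57BL/6J (adjusted p = 2.79e-10). The vesicle GTPase Rab3c was lower in NZO/HlLtJ than in CAST/EiJ by -1.66 (edgeR adjusted p = 3.53e-14), while Cadps2, a priming factor of dense-core granules, was higher by 1.41 (adjusted p = 2.2e-11). Its relative Cadps was lower in NZO/HlLtJ than in C57BL/6J by -0.996 (edgeR adjusted p = 9.57e-10). Syt9 was lower than in C57BL/6J by -0.95 in NZO/HlLtJ (adjusted p = 1.96e-11) and by -1.07 in CAST/EiJ (adjusted p = 3.08e-13), and Syt5 was higher by 0.93 (adjusted p = 4.88e-07) and by 1.58 (adjusted p = 1.25e-12) in the same strains.

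For each member, the tested genes whose log2 CPM followed it most closely over the 45 libraries were listed by Pearson's r, which is given as a description: the libraries share strain, sex, diet and tissue makeup. Syt13 was closest to Chga (0.969), the granule protein chromogranin A, and then Acsf3 and Cdhr1 (0.957 each). Rims2 was closest to Epb41l3 (0.958), Tenm2 (0.956) and Slc30a8 (0.952), which loads zinc into insulin granules. Syt7 was closest to Sdk2 (0.909), Sv2a (0.907), a vesicle glycoprotein, and Synrg (0.905). Rab3a followed Rraga (0.942), Srxn1 (0.936) and Elp3 (0.912), and Rab27a followed Mrfap1 (0.929), Atp6v0c (0.910), a subunit of the vesicle proton pump, and Gnl3l (0.908). Snap25 was closest to Gm13814 (0.908), AA474331 (0.903) and Lancl1 (0.898), and Vamp2 to Fer1l6 (0.887), 2700046G09Rik (0.884) and 2810402E24Rik (0.882). The lowest leading values were those of Stx1a, with Prr36 (0.868), Fev and Cx3cl1 (0.809 each), and of Unc13a, with Sgsm2 (0.859), Cacna1c (0.851), a calcium channel subunit, and Clstn3 (0.850).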

How the data were processed

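RNA of mouse islets was measured in 45 libraries. The matrix the authors deposited holds estimated counts per gene, of which 23.6% are not whole numbers, and they were rounded here. The authors also deposited log2-scale values after variance stabilisation, which served one alternative. GRCm38 and DESeq2 are named in the submitters' processing notes, without a role; how reads were aligned and counted was not given in the sources used here.

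Library totals were 57.2 to 110 M, and precision is set mainly by the spread between libraries. Tests used edgeR 4.0.16 in R 4.3.3: TMM factors (0.486 to 1.178), the default expression filter (minimum count 10, 20306 genes), 1 model of 12 groups, 29 comparisons, quasi-likelihood F tests with robust estimation, and Benjamini-Hochberg adjustment over all genes within each comparison, at 0.05. SE were worked out from log2 fold changes with their F statistics, and 95% intervals are 1.96 SE either side. Levels are TMM-scaled CPM; log2 CPM had a prior count of 2. On simulated counts for the NZO/HlLtJ male comparison, with 20306 genes, 49 of 100 genes changed by 1 log2 unit and 14 of 100 changed by 0.5 were recovered. Far fewer genes were changed in the simulation than the 6518 that passed in the measured comparison. The adjustment over all genes depends on how many genes change, so these shares do not give the recovery for the members. Replicate numbers follow accession order and pair nothing.

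The naming rule took all 9 genes in every comparison; where few or none passed, some are given by range or count alone. From the other exocytosis genes, at most 3 per direction with the smallest adjusted p were open to naming in each comparison, and for likeness the 3 genes with the highest r per member. The members, the lists and the tests were chosen with earlier results of these data known, and so were the 5 libraries left out together in an alternative: the 4 with transcripts of another strain, and C57BL/6J female 44% fat replicate 2, which showed none by the rule used here. Alternatives used DESeq2 1.42.0 and limma 3.58.1; tables and plots used pandas 2.3.3 and matplotlib 3.10.9.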

Additional observations from a re-analysis of the deposited data

Results flagged for a closer look

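In 5 of 81 groups of 4 libraries (9 genes in 9 groups), the lowest library lay far from the other 3, with a gap divided by the group's range above Dixon's 95% critical value; chance gives about 1 in 20. Syt7 in C57BL/6J female 10% fat replicate 4 was at 248 CPM, against 296 to 300.1 CPM in the other 3 libraries (ratio 0.923). In the same library Syt13 was at 800.2 CPM, against 994 to 1022 CPM (0.875), and Rab3a at 49.5 CPM, against 78.9 to 84.8 CPM (0.835). Its beta cell marker sum was 84450 CPM, against 108600 to 115100 CPM, and its acinar sum 358200 CPM, against 28190 to 152000 CPM. Syt7 in CAST/EiJ female 10% fat replicate 4 was at 234 CPM, against 286 to 296 CPM (0.846); its acinar sum was 711700 CPM, against 11630 to 63070 CPM, and its TMM factor was the lowest, 0.486. Rab27a in NZO/HlLtJ female 10% fat replicate 2 was at 218 CPM, against 227 to 229 CPM (0.833). The part of acinar RNA in these values was not tested.

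The diet effect in NZO/HlLtJ differed by edgeR's interaction test for 9 combinations of gene and contrast. Male minus female, the differences were -0.92 (Syt13), -0.75 (Rab3a), -0.69 (Rab27a), -0.62 (Snap25) and -0.49 (Vamp2). Against C57BL/6J they were -0.53 (Rims2) and -0.29 (Vamp2), and against CAST/EiJ -0.59 (Rims2) and -0.33 (Syt7). Without NZO/HlLtJ male 44% fat replicate 3, the Rims2 differences between strains still passed and the other 7 did not.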

How the results depend on the processing

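No value that passed changed sign under any alternative run. Among those that did not pass some did, such as Stx1a in NZO/HlLtJ males (0.04 with TMM, -0.0041 with library totals alone). No paired analysis was possible because replicate numbers come from accession order and pair no libraries. Counts are of the 9 genes unless stated. With library totals alone as the scaling, 3 of the 9 passed in NZO/HlLtJ males (8 with TMM; the 5 lost were at -0.65 to -0.51, against -0.59 to -0.45 with TMM), 1 for the diet effect in NZO/HlLtJ minus C57BL/6J, 1 minus CAST/EiJ, 0 for males minus females; 2, 1 and 2 between strains on 10% fat (NZO/HlLtJ against CAST/EiJ, NZO/HlLtJ against C57BL/6J, CAST/EiJ against C57BL/6J); for males against females 0 in NZO/HlLtJ on 10% fat, 0 over the strains and 3 in NZO/HlLtJ on 44% fat; and of the other exocytosis genes 12 in NZO/HlLtJ females (0 higher, 12 lower), 19 in males (5 higher, 14 lower) and 0 for the diet effect in males minus females. That scaling moved the median of all genes to -0.22 in NZO/HlLtJ females, -0.08 in males and -0.24 for NZO/HlLtJ minus C57BL/6J, and in males gave 2343 genes higher and 965 lower, against 3451 and 3067 with TMM.

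Without the 4 libraries with transcripts of another strain and C57BL/6J female 44% fat replicate 2, which showed none here (5 in all), 3 passed in the NZO/HlLtJ mean, 4 in males, 1 and 1 for the strain differences of the diet effect, 0 for males minus females, 0 over the strains and 5 in NZO/HlLtJ for males against females on 44% fat, and 19 and 3 of the other exocytosis genes in males and in males minus females. For NZO/HlLtJ minus C57BL/6J the 2 became 1 with RLE factors, the acinar covariate or limma on the deposited log2 values, and 4 with number series added as a factor, which also gave 1 for the sexes of NZO/HlLtJ on 10% fat and 26 of the other exocytosis genes for males minus females. With the strains compared alone the counts were 1 (NZO/HlLtJ minus CAST/EiJ), 0 (males minus females), 0 (sexes of NZO/HlLtJ on 10% fat), and 9 and 1 of the other exocytosis genes in females and for males minus females.

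Leaving out 1 library at a time gave 3 to 6 in the NZO/HlLtJ mean, 1 to 2 in females and 4 to 8 in males; 1 to 4 against C57BL/6J, 1 to 3 against CAST/EiJ and 0 to 6 for males minus females; 3 to 6, 3 to 5 and 5 to 6 between strains on 10% fat; 6 to 7, 6 to 7 and 5 to 6 on 44% fat; and for the sexes 0 to 2 in NZO/HlLtJ on 10% fat, 1 to 6 over the strains and 6 to 8 in NZO/HlLtJ on 44% fat. Of the other exocytosis genes, 31 to 44 passed in the NZO/HlLtJ mean, 17 to 27 in females, 19 to 43 in males and 4 to 20 for males minus females. The most single calls (20) were lost without NZO/HlLtJ male 44% fat replicate 3. Male minus female on 10% fat in NZO/HlLtJ fell to 0 without male 10% fat replicate 3. The cause of these changes was not tested.

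The lowest count of a member in a library was 314, and groups held 3 or 4 libraries.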
